A study of Mus musculus with 4 samples.

Results

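The immediate-early response genes described here are 42 named genes, taken as a fixed list of symbols and grouped by family: Fos, Jun, Egr, Klf, Nr4a, Dusp, regulators of RNA decay, other transcription regulators and others. All 42 are listed among the 17457 genes of the expression table, and 40 of them reached an FPKM (fragments per kilobase of transcript, scaled to the mapped fragments of the library) of 1 in 2 or more of the 4 libraries, as did 11056 genes in all. No measured difference entered the choice, but the list was drawn up with earlier results of these data known. The 2 members left out were *Dusp2*, with an FPKM of 0.22 and 0 against 0 and 0.50 (controls 1 and 2 against L-MSC samples 1 and 2, the order used throughout), and *Cebpb*, with 0.09 and 0.08 against 0.60 and 0.54. Just inside the limit were *Egr3*, *Nr4a3* and *Dusp5*, at 1.34 and 1.82 against 2.49 and 0.77, 1.38 and 0.23 against 2.57 and 1.69 and 1.84 and 0.02 against 2.39 and 1.77. Each of the 40 members reached 1 in at least 1 library of each group.

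The study asked how B-cell acute lymphoblastic leukemia (B-ALL) alters mesenchymal stem cells (MSCs) of the bone marrow. RNA was sequenced from 2 libraries of control MSCs and 2 libraries of leukemia-associated MSCs (L-MSCs), each made from cells pooled over 4 to 7 mice. All mice were female C57BL/6J, 7 to 9 weeks old at injection, and the labels name no engineered allele. The leukemia group received 1000 cells of PER-M60, a pre-B ALL line that expresses BCR-ABL1 from a retroviral vector, through the tail vein and was killed at a high leukemia burden, while the control group received PBS and was killed at the matching time. In both groups, the marrow was flushed out and discarded, the femurs and tibias were digested with collagenase at 37°C, and cells that were CD45-, TER119-, CD31-, Sca-1+ and PDGFRα+ were sorted. These are pools from 1 leukemia line, and in such bulk libraries fewer cells of a type and less RNA per cell cannot be told apart.

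Immediate-early genes are transcribed within minutes of a stimulus, from factors already present in the cell and without new protein synthesis. Growth factors, cytokines and stress act through the MAP kinases on serum response factor (SRF) and its ternary complex partners, through CREB and through NF-κB at the promoters of these genes. The products are largely transcription factors, such as the Fos and Jun proteins that pair as AP-1, and inhibitors that end the response, such as the phosphatases of the Dusp family and the RNA-binding protein ZFP36. Many of them are also known to be induced while solid tissue is dissociated into single cells, a step that all 4 libraries shared.

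Sites that these factors bind can be read from promoter sequence. RefSeq windows from 250 bases before to 50 bases after an annotated start (GRCm38.p6) were at hand for 32 of the 42 members, in 41 windows. *Fosl1*, *Arc*, *Myc*, *Egr1*, *Ier2*, *Nfkbiz*, *Egr3*, *Sik1*, *Cebpd* and *Klf10* were not matched. Both strands were searched for the CArG box bound by SRF, the cAMP response element TGACGTCA bound by CREB, the AP-1 site TGANTCA, the EGR site GCGNGGGCG, the NF-κB site and the TATA box TATAAA, which can lie inside a CArG box but did not in the boxes found here. The CArG box was found in 3 members, *Zfp36*, *Egr2* and *Dusp5*, that is in 9.38% of members and in 1.81% of the 27025 genes with a window. The stretches that hold it are shown first, because *Zfp36* is one of the 6 members whose difference between the groups passed the test. Each is read 5′ to 3′ on the strand of its gene and ends at the base before the start (1 annotated start a gene is shown), with the matched letters in capitals. In *Zfp36* the run of capitals farther from the start is an EGR site, 105 bases before it, and the CArG box begins 58 bases before it. In *Dusp5* the 2 CArG boxes abut, at 82 and 72 bases before the start.
Zfp36, chr7:28379229-28379348, minus strand: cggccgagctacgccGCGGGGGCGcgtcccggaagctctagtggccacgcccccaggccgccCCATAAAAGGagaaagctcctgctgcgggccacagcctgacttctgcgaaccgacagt
Egr2, chr10:67537466-67537565, plus strand: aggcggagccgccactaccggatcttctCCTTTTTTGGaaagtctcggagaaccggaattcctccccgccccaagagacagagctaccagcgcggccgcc
Dusp5, chr19:53529045-53529144, plus strand: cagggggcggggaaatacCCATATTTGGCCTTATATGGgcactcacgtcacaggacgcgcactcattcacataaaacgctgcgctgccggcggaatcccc

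The cAMP response element was found in *Dusp1*, *Btg2*, *Ppp1r15a* and *Maff*, in 12.5% of members and 2.03% of the genes with a window. These are shown because *Dusp1*, *Btg2* and *Ppp1r15a* had control replicates that lay far apart, by 1.24, 1.66 and 1.71 on the log2 scale. In *Maff* the gap was 0.19, and 20 of the 40 members tested had a gap of at least 1. A link between the element and the gap was not tested. In these 4 genes the element began 143, 166, 12 and 29 bases before the start, and none of the 4 passed the test between the groups. The second run of capitals in *Btg2* is an EGR site 131 bases before the start.
Dusp1, chr17:26508473-26508632, minus strand: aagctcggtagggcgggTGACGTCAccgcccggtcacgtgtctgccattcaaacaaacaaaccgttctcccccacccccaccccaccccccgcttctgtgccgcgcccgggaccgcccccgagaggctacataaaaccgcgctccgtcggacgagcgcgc
Btg2, chr1:134079156-134079335, minus strand: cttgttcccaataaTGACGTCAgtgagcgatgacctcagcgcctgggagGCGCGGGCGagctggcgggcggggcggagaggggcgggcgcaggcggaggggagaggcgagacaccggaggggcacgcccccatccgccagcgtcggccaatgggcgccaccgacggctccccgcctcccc
Ppp1r15a, chr7:45526269-45526328, minus strand: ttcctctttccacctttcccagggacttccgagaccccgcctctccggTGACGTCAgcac
Maff, chr15:79347460-79347519, plus strand: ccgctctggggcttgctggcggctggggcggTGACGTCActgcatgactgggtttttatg

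The EGR site was found in 11 members, 34.4% against 6.27% of the genes with a window, and the NF-κB site in 6 members, 18.8% against 5.14%. The 27025 genes with a window include genes not tested here, and they were not matched to the members in base composition. The AP-1 site was found in *Csrnp1* and *Zfp36l1*, 6.25% against 8.97% of the genes with a window. The letters of the TATA box were found in 9 members, 28.1% against 15.7%, on either strand and anywhere in the window. In *Junb*, *Ppp1r15a* and *Cebpb* they lay at or after the start, and in *Nr4a2* on the strand opposite to the gene. The last 3 stretches are those of *Fosb* and *Ier3*, which passed the test, and of *Fos*, the most abundant member. The capitals mark an EGR site 50 bases before the start of *Fosb*, an NF-κB site 92 bases before that of *Ier3* and a TATA box 33 bases before that of *Fos*. A match describes letters in a window and is not a measured binding site, and a window without a match says nothing about a factor.
Fosb, chr7:19310046-19310145, minus strand: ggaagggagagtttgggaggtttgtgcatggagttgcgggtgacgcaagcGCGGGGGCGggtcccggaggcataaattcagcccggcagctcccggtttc
Ier3, chr17:35821593-35821712, plus strand: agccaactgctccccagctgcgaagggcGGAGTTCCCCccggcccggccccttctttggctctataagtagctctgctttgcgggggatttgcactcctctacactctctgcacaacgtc
Fos, chr12:85473790-85473889, plus strand: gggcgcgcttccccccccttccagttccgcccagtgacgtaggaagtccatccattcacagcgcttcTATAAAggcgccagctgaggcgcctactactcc

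Short genes are common among the members. Their median span in RefSeq was 5137.5 bases, against 23508 bases for the genes tested, and 34 of the 40 members tested (85.0%) had up to 4 exons in their longest coding transcript, against 20.8% of the genes tested. *Jun*, *Junb*, *Jund* and *Ier5* are among the 7 members of a single exon. The exons of 12 of the 42 members share bases with exons of a gene on the opposite strand, and the amplification kit used does not mark strand, so that reads from the 2 genes of such a pair cannot be told apart there. Among the members that passed the test this holds for *Cebpd* (562 bases shared with *Spidr*), *Jun* (232 bases shared with the antisense gene *Junos*) and *Zfp36* (125 bases shared with the antisense gene *Gm44710*). Longer overlaps were those of *Zfp36l1* (1672 bases shared with *Gm26669*), *Fosl1* (1163 bases shared with *Ccdc85b*) and *Jund* (877 bases shared with *Gm11175*), which did not pass.

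The sort was checked against its antigens. The Sca-1 gene *Ly6a* had an FPKM of 1056 and 1711 in the 2 controls against 1702 and 1985 in the 2 L-MSC samples, and *Pdgfra* had 66.8 and 72.7 in the 2 controls against 87.1 and 93.0 in the 2 L-MSC samples, while *Ptprc*, which encodes CD45, was at 0.02 or below in each library and *Pecam1*, which encodes CD31, was at 0.93 or below. Of 8 markers of sorted MSCs, all tested, 0 passed as higher in L-MSCs and 4 as lower, with a median log2 fold change of -0.47. *Ly6a* and *Pdgfra* belong to this list and did not pass. Of the 14 hematopoietic markers found in the table, 6 were below 1 in every library and 5 were tested, none of which passed. That list summed to 20.5 and 30.1 in controls 1 and 2 and to 35.7 and 14.7 in L-MSC samples 1 and 2. The B-lineage genes *Cd79a* and *Cd79b* were above 1 only in L-MSC replicate 1, at 1.27 and 1.43. Of 7 endothelial markers, 6 were below 1 throughout, and the 3 muscle markers found in the table summed to 1.02 or less. The erythroid markers summed to 239 and 150 in controls 1 and 2 and to 10.1 and 6.26 in L-MSC samples 1 and 2, with 4 of 4 tested lower in L-MSCs. The part of these transcripts in the differences described below was not tested. Sequencing depth is known only as a range for the whole study, so no counting interval was computed. Per library, 13623 to 14704 genes were above 0.

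The immediate-early genes made up a larger share of the transcriptome in L-MSCs than in control MSCs. The 42 members summed to an FPKM of 6051 and 2537 in control replicates 1 and 2 and to 12558 and 7999 in L-MSC replicates 1 and 2. These sums were 1.06% and 0.453% of all FPKM in controls and 2.13% and 1.39% in L-MSCs. The groups did not overlap, but the 2 control libraries differed from each other by more than control replicate 1 differed from L-MSC replicate 2. Levels of single members ran from *Fos*, the highest, down to *Cebpb* and *Dusp2*, which stayed below 1, with 16 members over 100 in at least 1 library and 9 below 10 in every library.

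**Figure D1:**
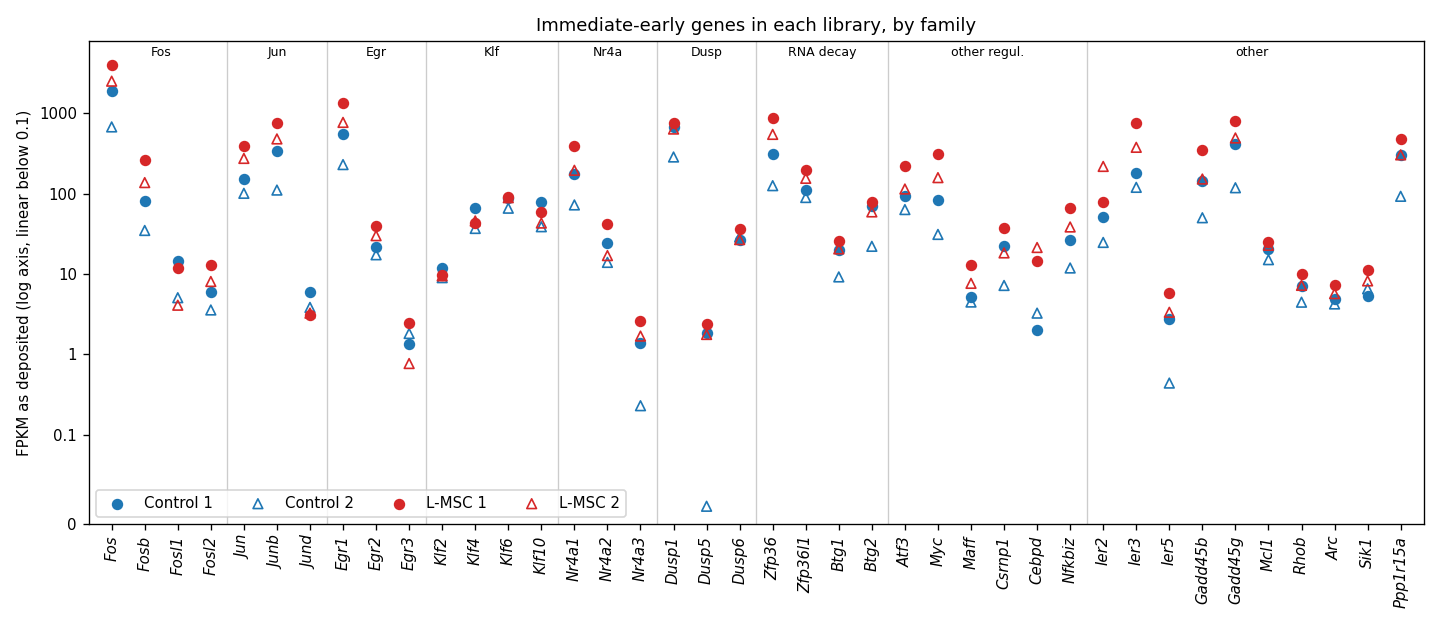
FPKM of the 40 members tested in each of the 4 libraries on a log axis that is linear below 0.1, by family, with filled circles for replicate 1 and open triangles for replicate 2, blue for control MSCs and red for L-MSCs. Control replicate 2 was the lowest library for 33 of 40 members and L-MSC replicate 1 the highest for 32 of 40, once the libraries were scaled.

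The FPKM were scaled between libraries by the median of ratios and compared on log2(FPKM + 1) with limma, and a gene was called when its adjusted p (Benjamini-Hochberg, over the 11056 genes) was 0.05 or less and its log2 fold change was 1 or more in size. Fold changes are given ± their standard error. In all, 6 members were called higher in L-MSCs, *Cebpd*, *Myc*, *Ier3*, *Fosb*, *Zfp36* and *Jun*, and 0 were called lower. Among all genes tested, 2.43% were called higher and 2.64% were called lower. The 6 are 15.0% of the members tested. The median log2 fold change of the members was 0.81, against -0.01 over all genes tested, and 34 of 40 members had a value above 0, against 49.3% of all genes. Both scaled L-MSC libraries lay above both control libraries for 23 of 40 members, against 24.8% of all genes, and below both for *Jund* alone, against 27.2%. The other 16 members overlapped between the groups. On the FPKM as deposited, without scaling, the L-MSC libraries were above both controls for 28 members, against 30.8% of all genes. At an unadjusted p of at most 0.05 in limma, 21 members were higher, against 9.54% of all genes, and 0 were lower, against 11.6%. With 2 libraries a group an exact permutation test cannot give a two-sided p below 0.333, so that these calls rest on the spread that limma pools over genes.

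The number called depended on single libraries. With control replicate 1 left out, 21 of the 40 members were called higher, against 3.07% of all genes tested in that fit, and with L-MSC replicate 2 left out, 18, against 4.10%. With L-MSC replicate 1 left out, 4 were called, against 2.08%, and with control replicate 2 left out, only *Cebpd*, against 1.78%. The median log2 fold change of the members was 1.26 and 0.45 without control replicates 1 and 2 and 0.49 and 1.04 without L-MSC replicates 1 and 2, so that it stayed above 0 in each case. A lone library left in a group was taken to vary like the other group.

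**Figure D2:**
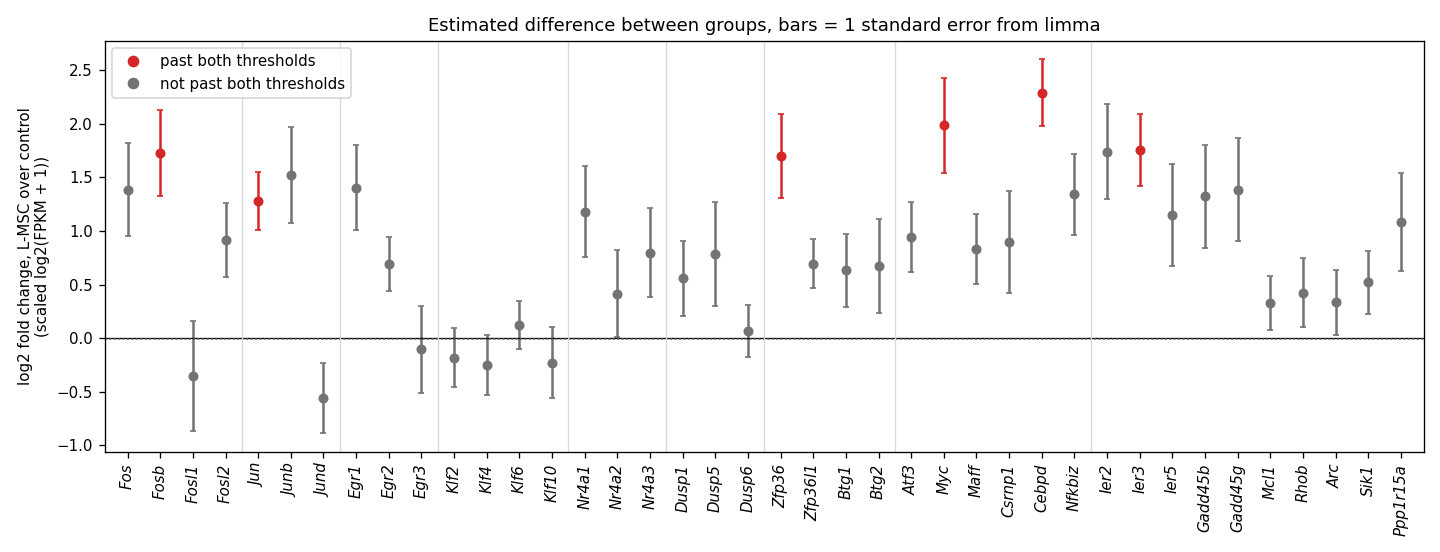
Estimated log2 fold change of L-MSCs over control MSCs for each of the 40 members tested, on the scale of scaled log2(FPKM + 1), with bars of 1 standard error from limma and red points for members past both thresholds. The 6 red members lie between 1.28 (*Jun*) and 2.29 (*Cebpd*), and several gray members of a like fold change have wider bars.

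The Fos family encodes the partners that need a Jun protein to bind DNA as AP-1. *Fos* was the most abundant member of the whole list, with an FPKM of 1866 and 675 in the 2 controls against 3969.8 and 2503 in the 2 L-MSC samples. Both L-MSC libraries were above both control libraries, with means of 3236 ± 1037 against 1270.5 ± 842 (mean ± SD, n = 2), but the log2 fold change of 1.39 ± 0.43 (limma adjusted p = 0.101) did not pass the test. The control replicates lay 1.49 apart on the log2 scale and the L-MSC replicates 0.71, replicate 1 being the higher in both. *Fosb*, which is made as a full-length and a shorter splice form, had an FPKM of 80.2 and 34.8 in the 2 controls against 264 and 137 in the 2 L-MSC samples. Both L-MSC samples exceeded both controls, and the log2 fold change was 1.72 ± 0.40 (limma adjusted p = 0.0368). This call was lost without control replicate 2 and without L-MSC replicate 1.

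*Fosl2*, which encodes FRA-2, was far less abundant, at 5.91 and 3.57 in the 2 controls against 13.0 and 8.07 in the 2 L-MSC samples, with no overlap and a log2 fold change of 0.91 ± 0.34 (limma adjusted p = 0.163). *Fosl1*, which encodes FRA-1 and shares 1163 exon bases with *Ccdc85b* on the opposite strand, had an estimate that stood apart from its family. Its FPKM was 14.6 and 5.07 in the 2 controls against 11.8 and 4.09 in the 2 L-MSC samples, so that replicate 1 was high and replicate 2 low in both groups, and its log2 fold change was -0.36 ± 0.51 (limma adjusted p = 0.748). The gap of 1.36 between its L-MSC replicates was the widest in that direction of any member. *Fos* supplied from 93.2% to 94.9% of the summed FPKM of the family in each library, and *Fosb* supplied 4.08% and 4.84% in control MSCs and 6.19% and 5.17% in L-MSCs.

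The Jun proteins can pair with each other or with Fos proteins. *Jun* had an FPKM of 153 and 101 in the 2 controls against 390.2 and 274 in the 2 L-MSC samples, and its log2 fold change was 1.28 ± 0.27 (limma adjusted p = 0.0256). Its replicates lay 0.62 apart in control MSCs and 0.55 apart in L-MSCs, and the groups did not overlap. The call was lost without control replicate 2 and without L-MSC replicate 1. *Junb* had an FPKM of 340.5 and 111 in the 2 controls against 759 and 479 in the 2 L-MSC samples, also without overlap, and a larger log2 fold change of 1.53 ± 0.45 (limma adjusted p = 0.0834) that did not pass. Control replicate 2 was the low library for *Junb*, and the gap to control replicate 1 was 1.64 on the log2 scale.

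*Jund*, which is known to be expressed more steadily than the other Jun genes, was at 6.05 and 3.84 in the 2 controls against 3.11 and 3.26 in the 2 L-MSC samples. The L-MSC samples were below the controls without overlap, but its log2 fold change of -0.56 ± 0.33 (limma adjusted p = 0.365) did not pass. *Jund* shares 877 exon bases with the antisense gene *Gm11175*, and reads there cannot be assigned to either gene. *Junb* was the largest contributor to the Jun family in every library, with 68.1% and 51.4% of the summed FPKM in control MSCs and 65.9% and 63.3% in L-MSCs, and *Jund* supplied 1.78% or less.

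**Figure D3:**
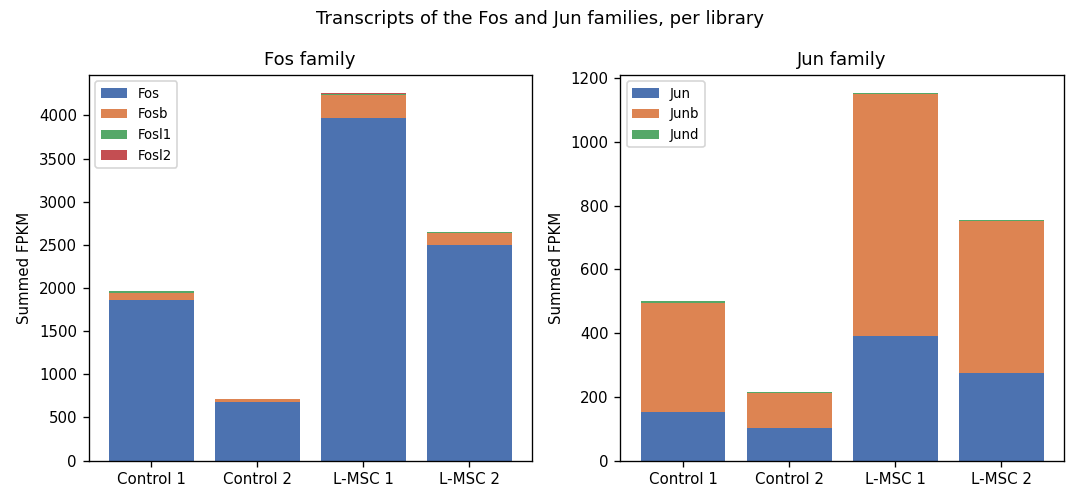
Summed FPKM of the Fos family (left) and the Jun family (right) in each library, stacked by gene, with axes that start at 0. The Fos family summed to 1966 and 719 in control MSCs and to 4258 and 2652 in L-MSCs, with *Fos* at 93.2% or more of each bar, and the Jun family to 499.9 and 215 and to 1153 and 756.

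The Egr genes encode zinc finger factors that bind GC-rich sites, and *Egr1* is among the best known readouts of ERK signaling. *Egr1* had an FPKM of 547 and 229 in the 2 controls against 1326 and 768 in the 2 L-MSC samples. Both L-MSC libraries were higher, and the log2 fold change of 1.40 ± 0.40 (limma adjusted p = 0.0737) did not pass. *Egr2*, whose promoter stretch with a CArG box is shown above, had 21.9 and 17.3 in the 2 controls against 39.4 and 30.0 in the 2 L-MSC samples, with narrow gaps between replicates of 0.34 and 0.42, no overlap between the groups and a log2 fold change of 0.69 ± 0.25 (limma adjusted p = 0.154). *Egr3* was near the limit of 1 and its libraries overlapped.

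The 4 Klf genes, zinc finger factors that bind GC-rich and CACCC sequences, were the family with a median below 0. *Klf6* was the most abundant, with an FPKM of 88.7 and 65.8 in the 2 controls against 90.1 and 88.9 in the 2 L-MSC samples, and its log2 fold change was 0.12 ± 0.22 (limma adjusted p = 0.803). *Klf4*, which had 66.4 and 36.9 in the 2 controls against 43.3 and 45.7 in the 2 L-MSC samples, had a log2 fold change of -0.25 ± 0.28 (limma adjusted p = 0.668). After scaling, all 4 overlapped between the groups, with a family median log2 fold change of -0.21 and the other 2 values at -0.18 for *Klf2* and -0.23 for *Klf10*. In control MSCs replicate 1 was higher than replicate 2 for each of them, by 0.85 for *Klf4* and 1.04 for *Klf10*, whereas in L-MSCs the gaps were -0.03 and 0.51. Without control replicate 1 the family median turned to 0.23, and without control replicate 2 it was -0.54. The contrast between this family and the others was not tested.

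The Nr4a genes encode orphan nuclear receptors whose activity follows their own transcription. *Nr4a1*, also known as NUR77, had an FPKM of 177 and 72.3 in the 2 controls against 394 and 195 in the 2 L-MSC samples. The groups did not overlap, although L-MSC replicate 2 and control replicate 1 lay close together, and the log2 fold change was 1.18 ± 0.43 (limma adjusted p = 0.148). *Nr4a2* had 24.1 and 13.9 in the 2 controls against 41.7 and 16.9 in the 2 L-MSC samples, which overlapped, with a log2 fold change of 0.42 ± 0.41 (limma adjusted p = 0.618) and a gap of 1.29 between the L-MSC replicates. *Nr4a3* was near the limit of 1, and its log2 fold change on this scale, 0.80, is reduced by the pseudocount.

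The Dusp genes encode phosphatases that remove phosphate from MAP kinases and so limit the signal that induces them. *Dusp1* had an FPKM of 665 and 285 in the 2 controls against 748 and 635 in the 2 L-MSC samples, where 3 libraries were alike and control replicate 2 was low. Its gap was 1.24 between the control replicates and 0.28 between the L-MSC replicates, and its log2 fold change was 0.56 ± 0.35 (limma adjusted p = 0.404). *Dusp6*, which acts on ERK, was even across the libraries, at 26.6 and 28.8 in the 2 controls against 36.3 and 26.8 in the 2 L-MSC samples, with a log2 fold change of 0.07 ± 0.24 (limma adjusted p = 0.905). *Dusp5*, a nuclear ERK phosphatase, was between 1.77 and 2.39 in 3 libraries and at 0.02 in control replicate 2. None of the 3 Dusp genes tested separated the groups.

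Regulators of RNA decay limit the response after transcription. *Zfp36* encodes tristetraprolin, which binds AU-rich elements and speeds the decay of cytokine and immediate-early transcripts. Its FPKM was 310.3 and 125 in the 2 controls against 876 and 545 in the 2 L-MSC samples, with means of 711 ± 234 against 218 ± 131 (mean ± SD, n = 2), and it was called higher with a log2 fold change of 1.70 ± 0.39 (limma adjusted p = 0.0363). Both L-MSC libraries were well above both control libraries, but the call was lost without control replicate 2 and without L-MSC replicate 1. *Zfp36l1*, a paralog with the same type of RNA-binding domain, had 111 and 89.4 in the 2 controls against 196 and 155 in the 2 L-MSC samples, with no overlap, gaps between replicates of 0.34 and 0.38 and a log2 fold change of 0.70 ± 0.23 (limma adjusted p = 0.114).

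*Btg1* and *Btg2* encode antiproliferative proteins that recruit the deadenylase complex. *Btg2* had an FPKM of 70.7 and 22.1 in the 2 controls against 79.5 and 59.2 in the 2 L-MSC samples, where control replicate 2 was the low library and the other 3 were alike. Its gap between the control replicates was 1.66, and its log2 fold change was 0.67 ± 0.44 (limma adjusted p = 0.421). *Btg1* showed the same layout at a lower level, with 19.7 and 9.20 in the 2 controls against 25.9 and 20.5 in the 2 L-MSC samples and a log2 fold change of 0.63 ± 0.34 (limma adjusted p = 0.325).

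Of the other transcription regulators, *Myc* and *Cebpd* were called higher. *Myc*, which drives growth and ribosome production, had an FPKM of 84.2 and 31.1 in the 2 controls against 309.7 and 158 in the 2 L-MSC samples and a log2 fold change of 1.99 ± 0.44 (limma adjusted p = 0.0316). The groups did not overlap, and the call was lost without control replicate 2 alone among the 4 libraries. *Cebpd*, which encodes C/EBPδ, a factor induced by cytokines and by glucocorticoids, had an FPKM of 2.04 and 3.26 in the 2 controls against 14.7 and 21.4 in the 2 L-MSC samples. Its log2 fold change of 2.29 ± 0.31 (limma adjusted p = 0.00446) was the largest of the members, and the call held with each library left out in turn. *Cebpd* also differed from the other members between replicates, since replicate 2 was the higher library in both groups, by 0.47 on the log2 scale in each.

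*Nfkbiz*, which encodes an inducible nuclear IκB protein, had 26.6 and 11.9 in the 2 controls against 65.6 and 38.5 in the 2 L-MSC samples, with no overlap and a log2 fold change of 1.34 ± 0.38 (limma adjusted p = 0.0724). *Atf3*, a stress-induced factor of the ATF/CREB family, had 93.0 and 63.3 in the 2 controls against 223 and 114 in the 2 L-MSC samples, with no overlap and 0.94 ± 0.33 (limma adjusted p = 0.132). *Maff*, a small Maf protein, and *Csrnp1*, a nuclear protein induced by AXIN1, had lower levels, of 5.18 and 4.48 against 13.1 and 7.65 and 22.1 and 7.20 against 37.8 and 18.3 in the order used above, and log2 fold changes of 0.83 and 0.89 that did not pass (adjusted p = 0.177 and 0.317 from limma). For *Maff* the groups were apart, and for *Csrnp1* L-MSC replicate 2 fell below control replicate 1.

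Among the remaining members, *Ier3*, an early response gene linked to survival under NF-κB, was called higher. Its FPKM was 179 and 119.6 in the 2 controls against 758 and 376 in the 2 L-MSC samples, with means of 567 ± 270.1 against 149 ± 42.1 (mean ± SD, n = 2), and the log2 fold change was 1.76 ± 0.34 (limma adjusted p = 0.0177). The groups were well apart, with a gap between replicates of 0.60 in control MSCs and 1.05 in L-MSCs, and the call was lost without control replicate 2. *Ier2* had 51.1 and 24.7 in the 2 controls against 77.8 and 218 in the 2 L-MSC samples. In L-MSCs replicate 2 was the higher library by 1.43 on the log2 scale, the widest gap in that direction of any member, whereas in control MSCs replicate 1 was higher by 1.04. Its log2 fold change was 1.74 ± 0.45 (limma adjusted p = 0.0518).

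*Gadd45g* and *Gadd45b* encode stress sensors that bind MAP kinase kinase kinases and cell cycle proteins. *Gadd45g* had an FPKM of 413 and 118 in the 2 controls against 789 and 492 in the 2 L-MSC samples, and its gap of 1.82 between the control replicates was the widest of all members. The groups did not overlap, and its log2 fold change was 1.39 ± 0.48 (limma adjusted p = 0.137). *Gadd45b* had 143 and 50.1 in the 2 controls against 347 and 152 in the 2 L-MSC samples, which overlapped once scaled, with a log2 fold change of 1.32 ± 0.48 (limma adjusted p = 0.152). *Ppp1r15a*, which encodes GADD34, the subunit that directs a phosphatase to eIF2α, had 299 and 92.5 in the 2 controls against 478 and 303 in the 2 L-MSC samples, where control replicate 1 and L-MSC replicate 2 were level and control replicate 2 was low. Its log2 fold change was 1.09 ± 0.46 (limma adjusted p = 0.211).

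The last 5 members were lower in level and none passed. *Mcl1*, an anti-apoptotic BCL2 family member, had 20.2 and 15.1 in the 2 controls against 24.9 and 22.8 in the 2 L-MSC samples, and *Ier5*, *Rhob*, *Arc* and *Sik1* were below 12 in each library. Their log2 fold changes were 0.33 for *Mcl1*, 1.15 for *Ier5*, 0.42 for *Rhob*, a small GTPase of actin and endosomes, 0.33 for *Arc*, known from neuronal activity, and 0.52 for *Sik1*, a kinase that restrains CREB coactivators. *Ier5* was at 2.72 and 0.44 in the 2 controls against 5.74 and 3.34 in the 2 L-MSC samples. Its estimate rests on values near the limit of 1 and was 1.76 with a pseudocount of 0.1.

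The members also differed between the replicates of one group. Within control MSCs, replicate 1 was higher than replicate 2 for 36 of 40 members, against 51.0% of all genes tested, and within L-MSCs also for 36 of 40, against 51.1%. Both held for 33 members, against 26.9% of all genes. The exceptions in control MSCs were *Cebpd*, *Egr3*, *Sik1* and *Dusp6*, and in L-MSCs *Ier2*, *Cebpd*, *Klf4* and *Jund*. The median difference was 1.01 on the log2 scale in control MSCs and 0.61 in L-MSCs, where the median over all genes tested was 0.01 in both. With 1 library on each side these differences have no test, and the labels do not say what the replicate numbers stand for.

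Replicate 1 exceeded replicate 2 by at least 1 on the log2 scale for 20 of 40 members in control MSCs, against 2.74% of all genes, and for 7 of 40 in L-MSCs, against 2.25%. In the other direction a difference of that size was found for 0 members in control MSCs and for *Ier2* in L-MSCs. The gap was larger in size in control MSCs than in L-MSCs for 28 of 40 members, against 49.2% of all genes. The widest gaps in control MSCs were those of *Gadd45g*, *Ppp1r15a*, *Btg2* and *Junb*, from 1.64 to 1.82, and in L-MSCs their gaps were 0.46 to 0.72. These genes were picked for their control gap, so that a smaller gap in L-MSCs follows in part from the choice. Across the 40 members the gap in control MSCs had a Pearson r of 0.30 and a Spearman rho of 0.38 with that in L-MSCs, and across all genes tested these were 0.10 and 0.07. Genes are not independent replicates, and each pair of values shares its libraries, so these are descriptions.

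**Figure D4:**
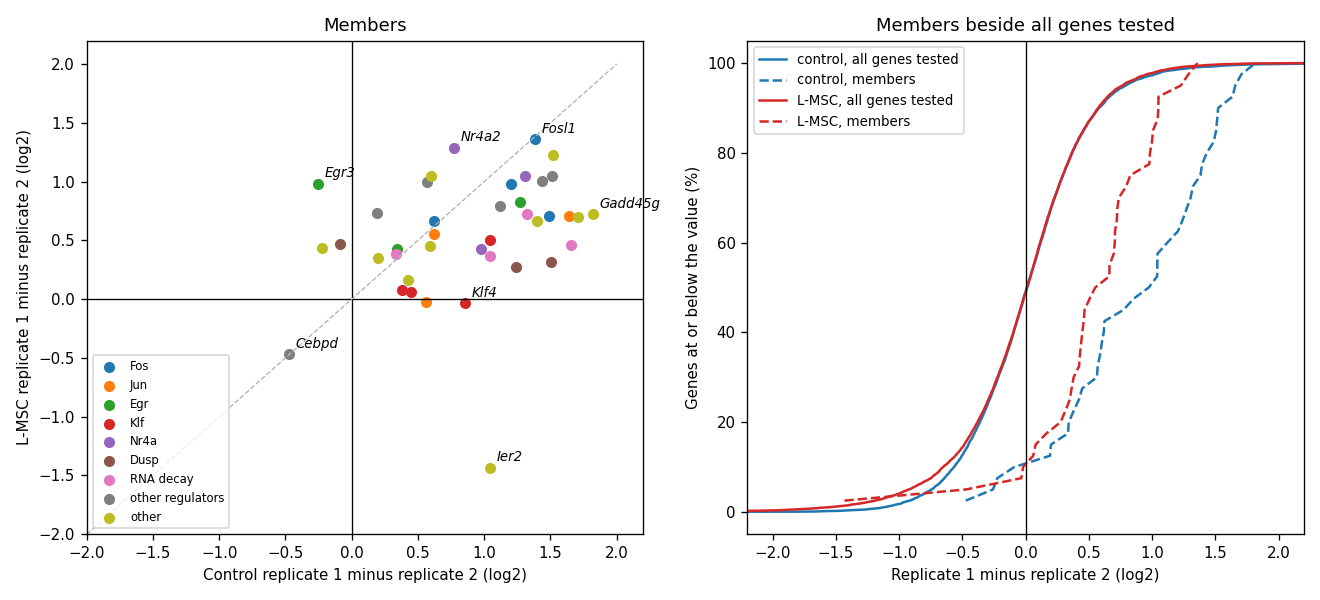
Left, the difference of replicate 1 minus replicate 2 on the log2 scale for each of the 40 members tested, control MSCs on the x axis and L-MSCs on the y axis, colored by family; right, the percent of genes at or below each difference, for the members (dashed) and all genes tested (solid). The members lie mostly in the upper right, 33 with both differences above 0, and the dashed lines lie to the right of the solid ones, with medians of 1.01 and 0.61 against 0.01.

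The 4 libraries followed one order for many members. Control replicate 2 was the lowest library for 82.5% of the members, against 24.7% of all genes tested, and L-MSC replicate 1 was the highest for 80.0%, against 29.9%. The full order of control replicate 2, control replicate 1, L-MSC replicate 2 and L-MSC replicate 1, from low to high, was that of 20 of 40 members, against 8.73% of all genes. Between the same-numbered libraries, the median log2 difference of L-MSCs over control MSCs was 0.70 for replicate 1 and 1.05 for replicate 2, and it was larger for replicate 2 in 28 of 40 members, against 51.4% of all genes. Between the 2 middle libraries, L-MSC replicate 2 minus control replicate 1, the median was 0.08, against -0.01 over all genes tested. L-MSC replicate 2 was the higher of these for 23 of 40 members, against 5433 of the 11056 genes tested.

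Base composition and gene length were set beside the replicate difference. The members had a median GC content of 54.5% against 50.3% in all genes tested. With all genes split into 4 equal bins of GC content, the median difference between the control replicates went from 0.11 in the lowest bin to -0.08 in the highest, and that between the L-MSC replicates from -0.02 to 0.05. The 786 genes of up to 4 exons and up to 5000 bases had medians of 0.08 in control MSCs and 0.02 in L-MSCs. The medians of the members were 1.01 and 0.61.

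Genes around the immediate-early response gave a mixed picture. Other primary response genes, that is further rapidly induced genes outside the list, had 9 of 35 called higher in L-MSCs, 0 called lower and a median log2 fold change of 1.10, and 23 were higher and 1 lower at an unadjusted p of at most 0.05 in limma. They included *Edn1*, the vasoconstrictor endothelin 1, with an FPKM of 0.53 and 1.51 in the 2 controls against 8.59 and 7.99 in the 2 L-MSC samples and a log2 fold change of 2.17 ± 0.35 (limma adjusted p = 0.00883). The kinase gene *Sgk1* had 1.71, *Irf1*, an interferon regulatory factor, 1.65 and *Socs3*, the inhibitor of JAK kinases, 1.47 (adjusted p = 0.00324, 0.0227 and 0.022 from limma). The call of *Socs3* was lost without control replicate 2 and without L-MSC replicate 1, and that of *Irf1* without control replicate 2. *Id3* and *Nfkbia*, the most abundant that were not called, had 0.99 and 0.90. *Ier5l*, at 0.67 and 0.53 against 2.36 and 1.90, entered the test only through the L-MSC libraries, where it is high. It is counted among the 35 and the 23, which are given as a description. Replicate 1 was higher in both groups for 26 of the 35, against 26.9% of all genes. Of all genes tested, 2.43% were called higher and 2.64% lower. At an unadjusted limma p of at most 0.05, 9.54% were higher and 11.6% lower.

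The kinases and SRF partners that act upstream of these genes were tested as 22 genes, with a median log2 fold change of 0.05. *Elk4*, a ternary complex partner of SRF, had an FPKM of 0.26 and 0.81 against 3.22 and 6.85 and so entered the test only through the L-MSC libraries, where it is high, and its log2 fold change of 1.86 ± 0.40 (limma adjusted p = 0.0268) is given as a description. It did not pass without control replicate 1. *Elk3*, another member of that family, was called lower, with -1.21 ± 0.29 (limma adjusted p = 0.0412), but not without scaling, with TPM, or without control replicate 1, control replicate 2 or L-MSC replicate 1 (adjusted p = 0.0596, 0.0613, 0.148, 0.103 and 0.115 from limma). The kinase gene *Map2k2*, whose product activates ERK, had -0.08 and was not called. Of 13 further inhibitors of ERK and related MAP kinase signaling, 0 were called higher and 2 lower, *Dusp8*, a phosphatase of JNK and p38, with -1.75 and *Dusp3* with -1.29 (adjusted p = 0.0259 and 0.019 from limma), and the median was -0.30, with 1 higher and 4 lower by the unadjusted limma p. The call of *Dusp8* was lost without control replicate 1 and that of *Dusp3* without L-MSC replicate 1. The most abundant of the others, *Errfi1* and *Spry1*, had 0.90 and -0.29. *Errfi1* is the 1 inhibitor that was higher by the unadjusted limma p, and it is also counted among the other primary response genes above.

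SRF also controls genes of the actin cytoskeleton, and these were tested as 16 genes. Of these, 0 were called higher and 2 lower, *Tagln2* with -1.38 and *Tpm4* with -1.02 (adjusted p = 0.00966 and 0.0195 from limma), and the median was -0.32, with 0 higher and 5 lower by the unadjusted limma p. *Tpm4* was not called without control replicate 1 (-0.92), nor with no scaling (-0.92), TPM (-0.96) or quantile normalization (-0.87). *Actb* and *Actg1* had -0.42 and -0.46 and were not called. The heat shock genes, some of which handling of cells can also induce, had 0 of 12 called in either direction. Their median was -0.12 (0 higher and 1 lower by the unadjusted limma p). Replicate 1 was higher than replicate 2 in both groups for 10 of these 12, against 26.9% of all genes. The median differences were 0.26 in control MSCs and 0.46 in L-MSCs. A difference of at least 1 was found in control MSCs for 2 of 12, *Hspa1a* and *Dnajb1*, against 2.74% of all genes. Their differences were 1.31 and 1.24 there and 0.73 and 0.60 in L-MSCs, where 0 of 12 reached 1, against 2.25% of all genes. *Hspa8*, the constitutive HSC70 and the most abundant, had 1180.0 and 1006 in the 2 controls against 1163 and 899.6 in the 2 L-MSC samples. Differences between these lists and the members were not tested.

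The number of members called also varied with the processing. With no scaling, with TPM or with a pseudocount of 0.5, the same 6 members were called, a pseudocount of 0.1 lost *Fosb* and *Zfp36*, and quantile normalization added *Egr1* and *Ier2*. Of all 11056 genes, 301 were called higher with no scaling, 241 with TPM and 258 with a pseudocount of 0.5. A pseudocount of 0.1 called 227 of them higher and quantile normalization 275. A minimum FPKM of 5 called 9 of the 35 members left, and 276 of the 7342 genes left were called higher. With no trend of the variance over expression, *Cebpd* alone was called, and a robust fit called *Cebpd*, *Ier3* and *Jun*. Over all 11056 genes, these fits called 148 and 287 higher. With no filter on low values 0 of 42 members were called by limma, as were 0 of all 15785 genes fitted, and 11 members had an unadjusted p of at most 0.05.

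**Figure D5:**
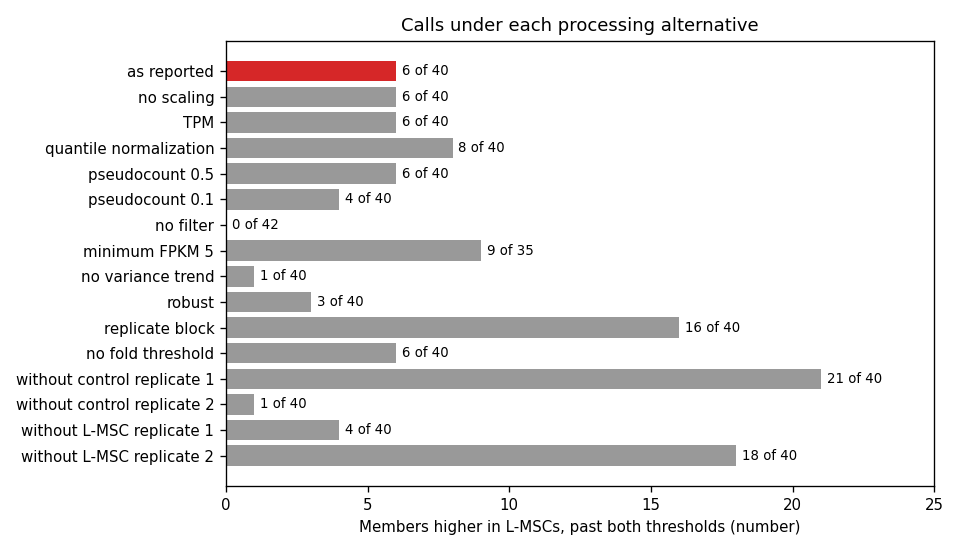
Number of members called higher in L-MSCs as reported (red) and under each alternative (gray), with the number tested beside each bar and an axis that starts at 0. The count ran from 0 of 42 with no filter to 21 of 40 without control replicate 1, and was 6 as reported.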

How the data were processed

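MSCs were sorted from 2 control and 2 leukemia pools of 4 to 7 mice and sequenced by the authors after amplification with a SMART-Seq kit. Per the labels' processing notes, the authors used HISAT2 2.0.4, Bowtie2 2.2.5 and RSEM 1.2.8 on GRCm38.p6 to make the deposited FPKM, which have 2 decimals. A deposited column of log2 ratios holds the authors' own comparison of the groups and was not used. The sources give sequencing depth only as a range for the whole study, not for each library, so no counting interval was computed, and 0 sample columns were left unmapped.

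Members were matched by symbol. Median-of-ratios scaling was applied to the FPKM (factors 0.969, 0.984, 1.03 and 1.06), genes below 1 FPKM in more than 2 of the 4 samples were dropped, and log2(FPKM + 1) was compared with limma 3.58.1 in R 4.3.3 (lmFit, eBayes with trend), which adjusts by the Benjamini-Hochberg method. A pseudocount of 1 understates the change of low genes. The members and the other gene lists were chosen with earlier results of these data known. Values in every library were to be given for called members, the most abundant of each family and those with the largest and smallest replicate differences, and from each other list for up to 4 called genes a direction and the 2 most abundant others. Some genes that this rule or the marker lists name are not reported here. Promoter windows and gene positions came from RefSeq, and exons and GC content from GENCODE. Nothing in the labels says that the pools of a group came from separate experiments, so p-values measure the spread between these samples. The alternatives changed the scaling (none, TPM or quantile), the pseudocount (0.5 or 0.1), the filter (none, or a minimum of 5), the fit (no variance trend, robust, or with a replicate block), the fold threshold (none) and the samples (each library left out).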

Additional observations from a re-analysis of the deposited data

How the results depend on the processing

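Of the 6 members called higher, *Cebpd* kept its call in every alternative but the unfiltered fit, and the direction of the 6 was the same throughout. With no filter on low FPKM, 0 members and 0 genes in all were called in either direction by limma, with 11 members at an unadjusted p of at most 0.05, over 15785 genes. With no variance trend, 1 member, 148 genes higher and 128 genes lower were called. A robust fit called 3 members and a pseudocount of 0.1 called 4, with 287 and 227 of all genes called higher. Without scaling 194 genes and with TPM 182 genes were called lower, against 292 as reported, and the median log2 fold change over all genes was 0.08 and 0.05, against -0.01. With 1 library left out, the members called ranged from 1 to 21, all genes called higher from 192 to 437 and all genes called lower from 196 to 546. Members called lower were 0 in each alternative. With the replicate number as a block, 16 members were called higher, 6 of them the members called without it, and 508 genes in all were called higher. The labels do not say that a number marks a shared day or batch, and with 2 pairs the deviations of same-numbered samples from their group means correlated at 0.10, which is the same for both pairs by construction, so that pairing was not established, and whether same-numbered samples share a batch was not tested. The cause of these changes was not tested. The lack of read counts per gene limits what can be said of members near an FPKM of 1, such as *Dusp5* and *Nr4a3*.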
